A study of Mus musculus with 6 samples.

Results

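The genes described here are 34 transcripts of the endoplasmic reticulum (ER) stress response and of the amino acid stress response. They were listed by symbol, with earlier results of these data known. Each was read at its probe set of highest mean over the 6 arrays, a probe set annotated by the platform to that gene alone. All 34 of the 34 were measured, out of 18193 genes with a probe set of their own, and 81 probe sets carried one of these symbols. They fall into 12 ER chaperones and folding factors, 5 genes of ER-associated degradation and translocation, 3 stress transcription factors and 14 enzymes, transporters and other targets of the factor Atf4. The main contrast of roles was between the 12 ER chaperones and the 16 genes of the Atf4 pathway (Atf4, Ddit3 and the 14 others).

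Expression was measured in total RNA of pancreatic tumour cells from C57BL/6 mice aged 11 weeks. Among the tumour alleles that all 6 samples carried are those that the labels write as p53f/f and ptf1a-Cre. Ptf1a encodes a transcription factor of pancreatic progenitor and acinar cells. The labels do not say whether its own locus or a transgene drove the recombinase. Samples labelled wt kept Msi1 and are called wild-type here (3 samples). Samples labelled Msi1 -/- are called Msi1-null (3 samples), and the labels do not say in which cells the gene was lost. Msi1 encodes Musashi 1, an RNA-binding protein that controls translation of its target mRNAs. Each sample was hybridised to 1 array, so the number of arrays limits the precision. The labels do not say whether the samples are from different animals, so p-values measure only the spread between these samples, which may be technical in part. Wild-type replicate 3 differed from the other wild-type samples in its sex genes (below), so the wild-type samples did not all come from 1 animal.

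Proteins entering the ER are folded by chaperones such as Hspa5 (BiP), and a shortage of folding capacity activates the sensors Ire1, Perk and Atf6. Ire1 splices the mRNA of Xbp1, Atf6 is cleaved to an active factor, and both raise chaperone and degradation genes through ER stress response elements in promoters. Perk, like the amino acid sensor Gcn2, phosphorylates the initiation factor eIF2, which favours translation of Atf4. Atf4 then raises genes for amino acid synthesis, amino acid transport and stress signalling. Exocrine cells of the pancreas and plasma cells are known for a large ER. Both activation of Atf4 and splicing of Xbp1 act after transcription and are not read by these probe sets.

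The promoters were searched for known elements of these responses. Most members with a promoter entry, among them Xbp1, Ddit3, Pdia4 and Phgdh, had none of them. RefSeq promoters of GRCm38.p6, from 250 bases before to 50 bases after each start, were matched for 30 of the 34 members, with 32 promoters in all. Hyou1, Manf, Slc7a5 and Cth had no entry. The ER stress response element (ERSE) was searched as CCAAT and CCACG with 9 bases of any kind between them, the second element (ERSE-II) as ATTGG and CCACG with 1 base between them, the Xbp1 element core as TGACGTGG and the Atf4 element (CARE) as TGATGNAA, each on both strands. ERSE letters stood in 7 of the 30 matched members, against 0.137% of all 27025 genes with a promoter of this length. All 7 were ER genes: Hspa5, Hsp90b1, Pdia6, Calr, Dnajc3, Creld2 and the ubiquitin ligase gene Syvn1, and none of the 14 matched Atf4 pathway genes had them. The 8 ERSE sites are shown because they carry the common element of the chaperone genes. Capitals mark the fixed letters, and all are written in the orientation of the element.
Hspa5: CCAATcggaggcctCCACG
Hsp90b1, nearer site: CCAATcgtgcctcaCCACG
Hsp90b1, farther site: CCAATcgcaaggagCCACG
Pdia6: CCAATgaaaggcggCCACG
Calr: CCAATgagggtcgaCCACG
Dnajc3: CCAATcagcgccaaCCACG
Creld2: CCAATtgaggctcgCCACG
Syvn1: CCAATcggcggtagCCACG

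ERSE-II letters stood in Dnajb11 (ATTGGcCCACG, 7 to 17 bases after the start) and in Herpud1 (ATTGGgCCACG, 52 to 42 bases before it), against 0.0444% of genes with a promoter. CARE letters stood in 5 of 30 members, Asns, Trib3, Chac1, Vldlr and Herpud1, against 4.51% of genes with a promoter. Of the 14 matched Atf4 pathway genes 4 had them, and of the 10 matched ER chaperones 0. The Xbp1 element core was in 0 of the 30 members and in 0.714% of genes with a promoter. No member site overlapped a site of another of these motifs. A match describes letters in this window and is not a measured binding site. The members were listed as genes of these responses, and the elements are known ones of the same responses. An excess over all genes was thus built into the choice of genes and is not a result of the arrays.

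The 250 bases before the start are shown for 3 members that carry elements: Hspa5 with ERSE at chr2:34771840-34772089 (plus strand), Herpud1 with ERSE-II and CARE at chr8:94386179-94386428 (plus strand), and Asns with CARE at chr6:7693210-7693459 (minus strand). Capitals again mark the fixed letters of the motifs, on either strand. The Hspa5 element lay 65 to 47 bases and the Asns element 23 to 16 bases before the start.
Hspa5: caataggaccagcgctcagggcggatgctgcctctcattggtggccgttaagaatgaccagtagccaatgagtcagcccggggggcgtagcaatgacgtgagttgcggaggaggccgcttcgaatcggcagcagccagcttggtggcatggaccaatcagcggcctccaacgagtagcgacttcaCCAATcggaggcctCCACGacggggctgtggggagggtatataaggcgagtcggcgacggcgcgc
Herpud1: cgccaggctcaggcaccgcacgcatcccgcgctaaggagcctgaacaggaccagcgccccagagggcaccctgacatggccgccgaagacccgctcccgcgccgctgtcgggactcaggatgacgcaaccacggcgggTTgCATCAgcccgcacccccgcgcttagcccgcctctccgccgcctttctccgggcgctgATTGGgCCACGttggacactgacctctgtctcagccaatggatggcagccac
Asns: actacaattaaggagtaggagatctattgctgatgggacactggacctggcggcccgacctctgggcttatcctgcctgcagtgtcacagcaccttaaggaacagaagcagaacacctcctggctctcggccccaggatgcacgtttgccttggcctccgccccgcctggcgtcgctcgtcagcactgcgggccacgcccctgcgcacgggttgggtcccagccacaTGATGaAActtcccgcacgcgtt

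Several facts of the 6 arrays bear on all values below. Median intensity ran from 159.2 to 164.3, and pairs of arrays correlated between 0.975 and 0.993 over all probe sets (log2 values). The Msi1 probe sets were dim in both genotypes. The brightest read 144, 150.4 and 257 in wild-type and 141, 168 and 127 in Msi1-null replicates 1 to 3. Their place relative to the deletion is not given, so the genotype labels stay unchecked by them. Wild-type replicate 3 had a female pattern (Xist 6226, Eif2s3y 88.2), while in the other 5 arrays Xist was between 131 and 387 and Eif2s3y between 716 and 944. No Msi1-null array had the female pattern, so sex was not balanced between the genotypes, and its part in the values was not tested. Array background was taken as the 95th percentile of 44 olfactory receptor probe sets, 154 to 168 per array. On this measure 32 of the 34 members lay above background on all 6 arrays. The exceptions were Stc2, above it on 5 arrays, and Cth, above it on 1.

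No member passed the test between the genotypes. Of 45037 probe sets 0 had an adjusted p under 0.05 (limma, Benjamini-Hochberg), a background of 0%, and the adjusted p of every member was 0.9997. An unadjusted p under 0.05 was reached by 1355 probe sets, 3.01% of those tested (886 without wild-type replicate 1 and 2723 without Msi1-null replicate 1). Among genes at their brightest probe set the share was 3.46%, and among the 34 members, read likewise, it was reached by 0. A dimmer probe set of Aldh18a1 did reach it (p 0.0161 in limma). Means were higher in Msi1-null arrays for 27 of 34 members, against 50.3% of all genes (19 without Msi1-null replicate 3, and 22 to 29 without any other array), and 8 of 34 differed by over 0.2 in size, against 11.6% of genes. Of all 18193 genes 11471 lay above background on every array, against 32 of the 34 members. The part of brightness in the share over 0.2 was not tested. The median difference of the 34 was 0.10 on the log2(intensity + 1) scale used throughout, against 0.00 over all genes. Members ran from -0.22 for Vldlr to 0.28 for Pdia6, and their standard errors from 0.07 to 0.38.

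**Figure D1:**
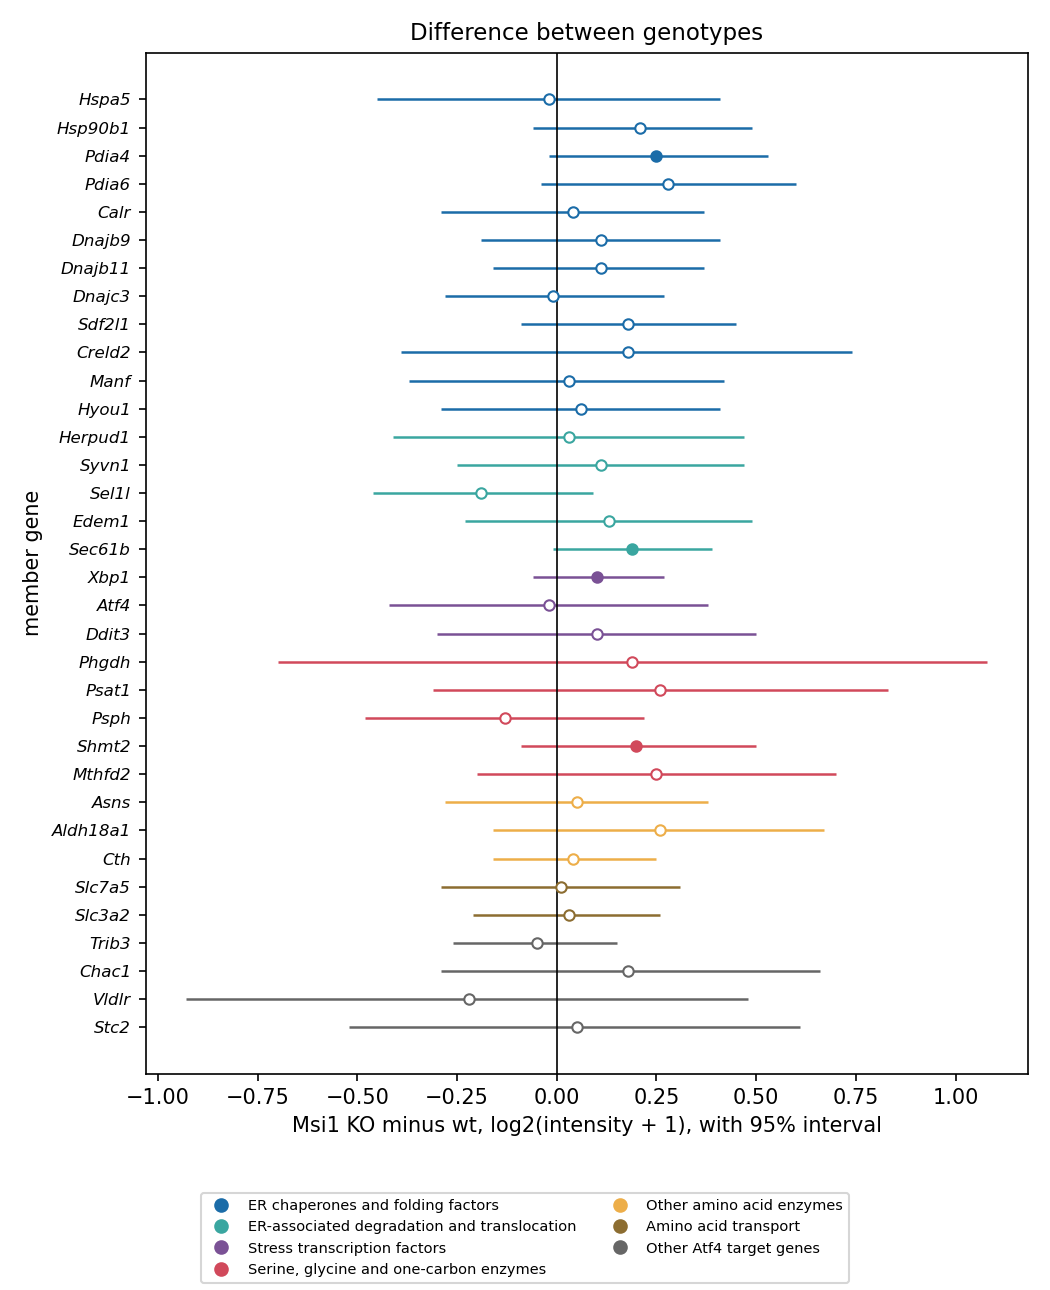
Difference between genotypes for each of the 34 genes, Msi1-null minus wild-type on the log2(intensity + 1) scale, with the 95% interval from limma. Colours give the role, filled points mark the 4 genes whose groups did not overlap (Pdia4, Sec61b, Xbp1 and Shmt2), and every interval includes 0.

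The ER chaperones and folding factors had small positive differences for the most part. Means were higher in Msi1-null arrays for 10 of 12, with a median difference of 0.11 and a range of -0.02 to 0.28, and 0 of 12 passed. Without Msi1-null replicate 2 the median was 0.01 and 7 of 12 had higher means, and without wild-type replicate 1 the median was 0.06 and 8 of 12 had higher means. Hspa5, the main Hsp70 chaperone of the ER and the standard readout of ER stress, read 5125, 5605 and 6671 in wild-type and 4286, 6644 and 6484 in Msi1-null replicates 1 to 3. The groups overlapped fully, and Msi1-null replicate 1 was the lowest array. The difference was -0.02 ± 0.18 (SE; 95% interval -0.45 to 0.41). The other probe sets of Hspa5 differed by 0.08 and 0.18, so its sign depended on the probe set.

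Hsp90b1 (Grp94), the Hsp90 chaperone of the ER, read 3827, 4540 and 4597 in wild-type and 4588, 5671 and 4785 in the Msi1-null arrays. Wild-type replicate 3 and Msi1-null replicate 1 met at nearly the same value, and the difference was 0.21 ± 0.12 (SE). Its other probe set differed by 0.37. Pdia4, a protein disulfide isomerase, read 1125, 1149 and 1194 in wild-type and 1446, 1502 and 1207 in the Msi1-null arrays. The groups did not overlap, although Msi1-null replicate 3 stood just above wild-type replicate 3, and the difference was 0.25 ± 0.12 (SE; 95% interval -0.02 to 0.53). Pdia6, a related isomerase, had the largest difference of the 34, 0.28 ± 0.14 (SE). It read 1677, 2250 and 1924 in wild-type and 2112, 2534 and 2424 in the Msi1-null arrays, with wild-type replicate 2 inside the Msi1-null range. For both isomerases the other probe set lay under the background and differed by 0.01 for Pdia4 and 0.03 for Pdia6.

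Calreticulin (Calr), the calcium-binding lectin chaperone, read 4149, 5135 and 5206 in wild-type and 4229, 5771 and 4929 in the Msi1-null arrays, a difference of 0.04 ± 0.14 (SE). Replicate 1 was the lowest array in both genotypes. The same held for Creld2, a secreted stress-induced factor, and Manf, a stress-induced factor of the ER lumen. Creld2 read 737, 867 and 1066 in wild-type and 694, 1255 and 1126 in the Msi1-null arrays (0.18 ± 0.24, SE), and Manf 1554, 1788 and 2054 against 1506, 2198 and 1822 (0.03 ± 0.17, SE). The difference of Creld2 was 0.01 without Msi1-null replicate 2 and 0.43 without Msi1-null replicate 1. Hyou1 (Grp170), the nucleotide exchange factor of Hspa5, read 483, 645 and 612 against 549, 687 and 571, a difference of 0.06 ± 0.15 (SE).

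The J-domain cochaperones of Hspa5 differed little between genotypes. Dnajb9 (0.11 ± 0.13, SE), Dnajb11 (0.11 ± 0.11) and Dnajc3 (-0.01 ± 0.12), also known as the Perk inhibitor p58IPK, had overlapping groups. Without Msi1-null replicate 2 the difference of Dnajb9 was 0.01. Dnajc3 had 5 probe sets, which differed by between -0.19 and 0.01. Sdf2l1, a partner of Dnajb11 in the ER, read 696, 772 and 853 in wild-type and 921, 840.4 and 865 in Msi1-null arrays, and differed by 0.18 ± 0.11 (SE). Wild-type replicate 3 lay above Msi1-null replicate 2, so the groups overlapped.

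Genes of ER-associated degradation and translocation had higher Msi1-null means for 4 of 5, with a median difference of 0.11 and a range of -0.19 to 0.19, and 0 of 5 passed. Sel1l, the adaptor of the Hrd1 ligase, was 1 of 3 ER genes with a lower mean in Msi1-null arrays. It read 1450, 1723 and 1395 in wild-type and 1291, 1309 and 1398 in the Msi1-null arrays, a difference of -0.19 ± 0.12 (SE). Wild-type replicate 2 stood highest, and 2 of its other 4 probe sets pointed the other way, within a range of -0.19 to 0.04 for all 5. Syvn1, the Hrd1 ligase itself, differed by 0.11 ± 0.16 and Edem1, a mannosidase-like lectin that delivers misfolded glycoproteins, by 0.13 ± 0.15 (SE).

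Herpud1, a ubiquitin-like membrane protein of the same complex, read 2451, 1449 and 1844 in wild-type and 1806, 1906 and 2031 in the Msi1-null arrays. The wild-type arrays alone spanned all Msi1-null values, with replicate 1 highest, and the difference was 0.03 ± 0.19 (SE). Leaving out wild-type replicate 1 gave 0.23 and leaving out wild-type replicate 2 gave -0.15. Sec61b, a subunit of the translocation channel, read 4175, 4439 and 4741 in wild-type and 5383, 5023 and 4815 in the Msi1-null arrays. All Msi1-null arrays were higher, and the difference of 0.19 ± 0.09 (SE; 95% interval -0.01 to 0.39) was the one nearest the limit of an unadjusted p under 0.05 among the 34 genes.

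Among the transcription factors, Xbp1 varied least. It read 5422, 5210 and 5450 in wild-type and 5924, 5744 and 5592 in the Msi1-null arrays, a log2 range of 0.19 over the 6 arrays. The groups did not overlap and the difference was 0.10 ± 0.07 (SE; 95% interval -0.06 to 0.27). Its 4 probe sets all had higher Msi1-null means, by 0.04 to 0.18. Atf4 read 1681, 1942 and 2238 in wild-type and 1665, 1758 and 2378 in the Msi1-null arrays, a difference of -0.02 ± 0.17 (SE; 95% interval -0.42 to 0.38). In both genotypes replicate 1 was lowest and replicate 3 highest. Ddit3 (Chop), the pro-apoptotic factor downstream of Atf4, read 311, 329 and 375 against 279, 382 and 439.8, with that same placing of replicates 1 and 3, and differed by 0.10 ± 0.17 (SE).

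**Figure D2:**
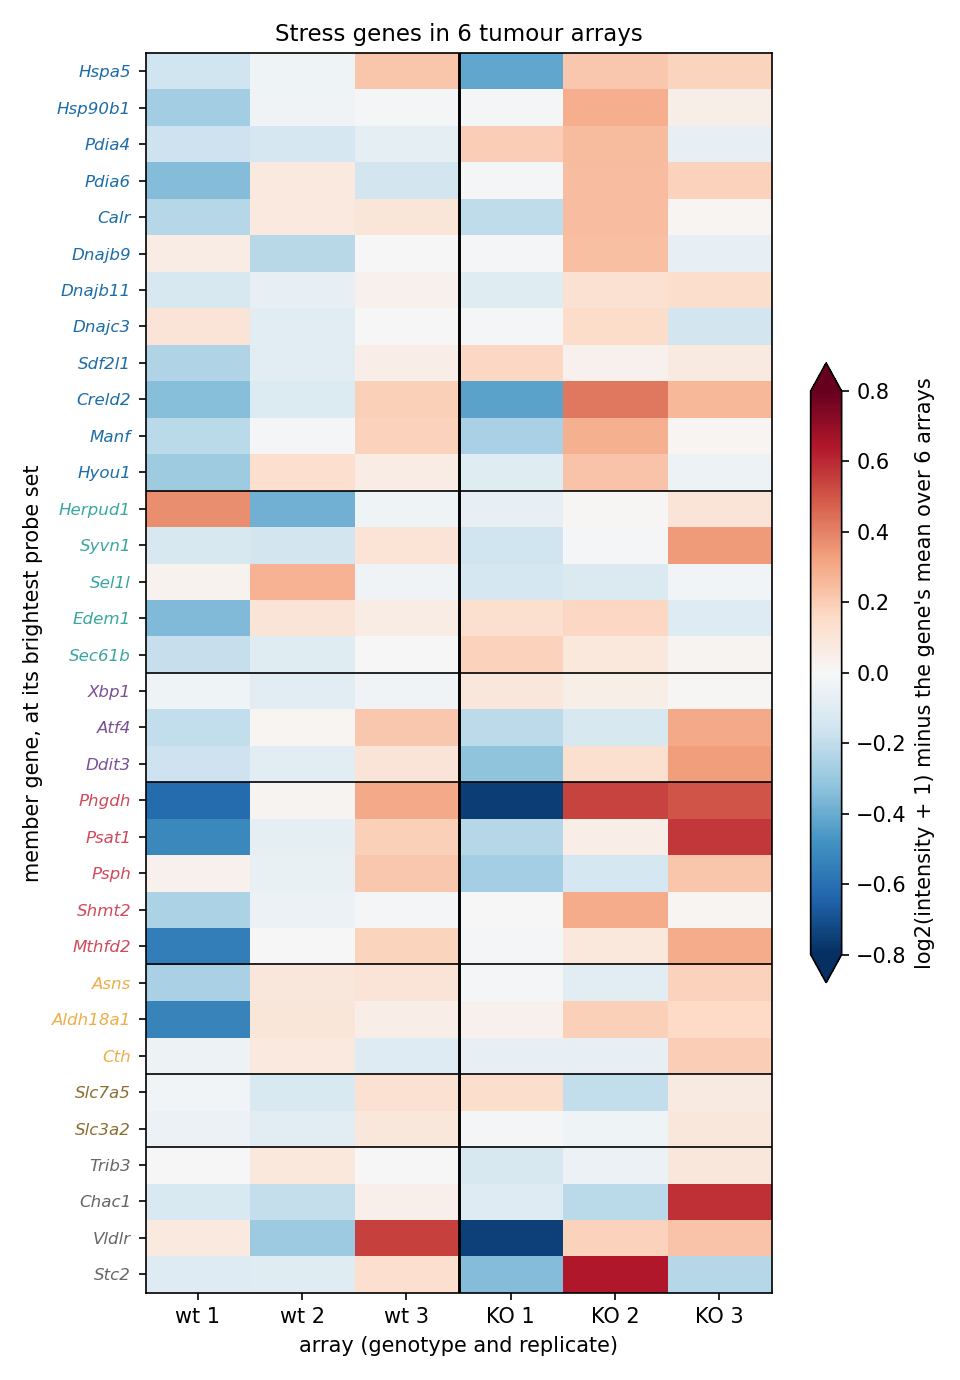
Level of each gene on each of the 6 arrays, as log2(intensity + 1) minus the gene's mean over the 6 arrays, with genes grouped and coloured by role. Red is above and blue below the gene's own mean, and 26 of the 34 genes have their lowest value in a column for replicate 1, wild-type or Msi1-null.

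The median log2 range was 0.51 for all members, 0.60 for the Atf4 pathway and 0.89 for Trib3, Chac1, Vldlr and Stc2. The enzymes of serine, glycine and folate one-carbon metabolism had a median range of 0.85 over the 6 arrays. Means were higher in Msi1-null arrays for 4 of 5, with a median difference of 0.20, and 0 of 5 passed. Phgdh, the first enzyme of serine synthesis, read 857, 1333 and 1622 in wild-type and 778, 1905 and 1856 in the Msi1-null arrays. Its log2 range of 1.29, which Vldlr shared at this precision, was the widest of the 34 genes, with replicate 1 far below the others in both genotypes. The difference was 0.19 ± 0.38 (SE; 95% interval -0.70 to 1.08). Leaving out Msi1-null replicate 1 gave 0.61, and leaving out wild-type replicate 1 gave -0.07. The 4 Phgdh probe sets differed by 0.17 to 0.33.

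Psat1, the next enzyme of serine synthesis, read 307, 417 and 502 in wild-type and 375, 455 and 651 in the Msi1-null arrays, a difference of 0.26 ± 0.24 (SE). Replicate 1 was again lowest and replicate 3 highest in each genotype. The difference of Psat1 was 0.04 without Msi1-null replicate 3 and 0.44 without Msi1-null replicate 1. Psph, which completes serine synthesis, had a lower Msi1-null mean, with 531, 499.5 and 604 against 429.8, 471 and 606 (-0.13 ± 0.15, SE). The mitochondrial enzymes Shmt2 and Mthfd2 carry the carbon of serine into the folate pool. Shmt2 read 437, 504 and 517 in wild-type and 519, 638 and 526 in the Msi1-null arrays. Its groups did not overlap, but wild-type replicate 3 and Msi1-null replicate 1 almost touched (0.20 ± 0.12, SE). Mthfd2 read 243, 356 and 404 against 355, 378 and 439, with wild-type replicate 1 well below all others (0.25 ± 0.19, SE). Without that array the difference of Mthfd2 was 0.04.

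Other amino acid enzymes gave differences of 0.04 to 0.26. Asns, the asparagine synthetase and a standard Atf4 target, read 773, 987 and 994 in wild-type and 916, 870.0 and 1052 in Msi1-null arrays, a difference of 0.05 ± 0.14 (SE; 95% interval -0.28 to 0.38). Aldh18a1, which starts proline synthesis, read 518, 802 and 779.9 against 768, 858 and 840.1 (0.26 ± 0.18, SE). Here wild-type replicate 1 was the outlying array, and without it the difference was 0.05. Cth, the cystathionine lyase of cysteine synthesis, was dim and differed by 0.04 ± 0.09 (SE). The large neutral amino acid transporter is made of Slc7a5 and its heavy chain Slc3a2. Slc7a5 read 647, 605 and 714 against 725, 574 and 692, and Slc3a2 1553, 1511 and 1705 against 1587, 1562 and 1706, with differences of 0.01 ± 0.13 and 0.03 ± 0.10 (SE).

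The remaining Atf4 targets showed no common direction, with 2 of 4 higher. Trib3, a pseudokinase that feeds back on Atf4, read 275, 292 and 275 in wild-type and 252, 267 and 294 in the Msi1-null arrays (-0.05 ± 0.09, SE). Chac1, an enzyme that degrades glutathione, read 247, 236 and 277 against 251, 232 and 405. One array, Msi1-null replicate 3, carried the difference of 0.18 ± 0.20 (SE), which was -0.07 without it. Stc2, a secreted glycoprotein, likewise rested on Msi1-null replicate 2, with 192, 193 and 226 against 162, 322 and 176 (0.05 ± 0.24, SE), and was -0.26 without that array. Vldlr, a lipoprotein receptor, read 324, 250.2 and 447 against 182, 348 and 359.5 (-0.22 ± 0.30, SE), and was 0.10 without Msi1-null replicate 1. In each of the 4 the SD of the Msi1-null log2 values was larger than the difference between genotypes.

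The groups failed to overlap for 4 of 34 members, all higher in Msi1-null arrays (Pdia4, Sec61b, Xbp1 and Shmt2). Over all genes 8.28% did not overlap, and over all probe sets 4.08% lay higher without overlap and 3.71% lower. No member lay lower without overlap. The log2 range of the members over 6 arrays had a median of 0.51, against 0.30 for all genes, and 19 of 34 exceeded 0.50, against 24.2% of genes. The members were also brighter, with a median log2 level of 10.06 against 8.13, and the part of brightness in this was not tested. Replicate 1 of either genotype held the lowest value for 26 of 34 members, against 43.6% of all genes. Msi1-null replicates 2 and 3 held the highest value for 26 of 34, against 33.6% of all genes.

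ER chaperones and Atf4 pathway genes were then set against each other. The score of a list on an array is the mean log2 value of its genes there, each centred on its mean over the 6 arrays. ER chaperone scores were -0.19, -0.04 and 0.05 in wild-type and -0.10, 0.23 and 0.05 in Msi1-null replicates 1 to 3. Atf4 pathway scores were -0.21, -0.04 and 0.14 in wild-type and -0.19, 0.07 and 0.23 in Msi1-null arrays. Both scores were low in replicate 1 of each genotype, and both overlapped between the genotypes. The highest ER score was in Msi1-null replicate 2, where 9 of the 12 chaperones had their highest value. The highest Atf4 pathway score was in Msi1-null replicate 3, where 10 of the 16 genes had theirs.

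Among the 16 Atf4 pathway genes 12 had higher Msi1-null means, with a median difference of 0.05, and 0 passed. Without Msi1-null replicate 3 the count was 5 and the median -0.03, and without Msi1-null replicate 1 they were 13 and 0.16. The ER score minus the Atf4 pathway score was 0.02, 0.00 and -0.09 in wild-type and 0.09, 0.15 and -0.18 in Msi1-null arrays. The wild-type mean of this contrast was -0.02 ± 0.06 and the Msi1-null mean 0.02 ± 0.17 (SD, n = 3). Their difference of 0.04 was smaller than either SD, and Msi1-null arrays lay both above and below all wild-type ones. Without Msi1-null replicate 3 it was 0.14, and without Msi1-null replicate 2 it was -0.02. The 9 members with ERSE or ERSE-II letters had a median difference of 0.11, the other 21 matched members 0.11 and the 5 with CARE letters 0.03.

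**Figure D3:**
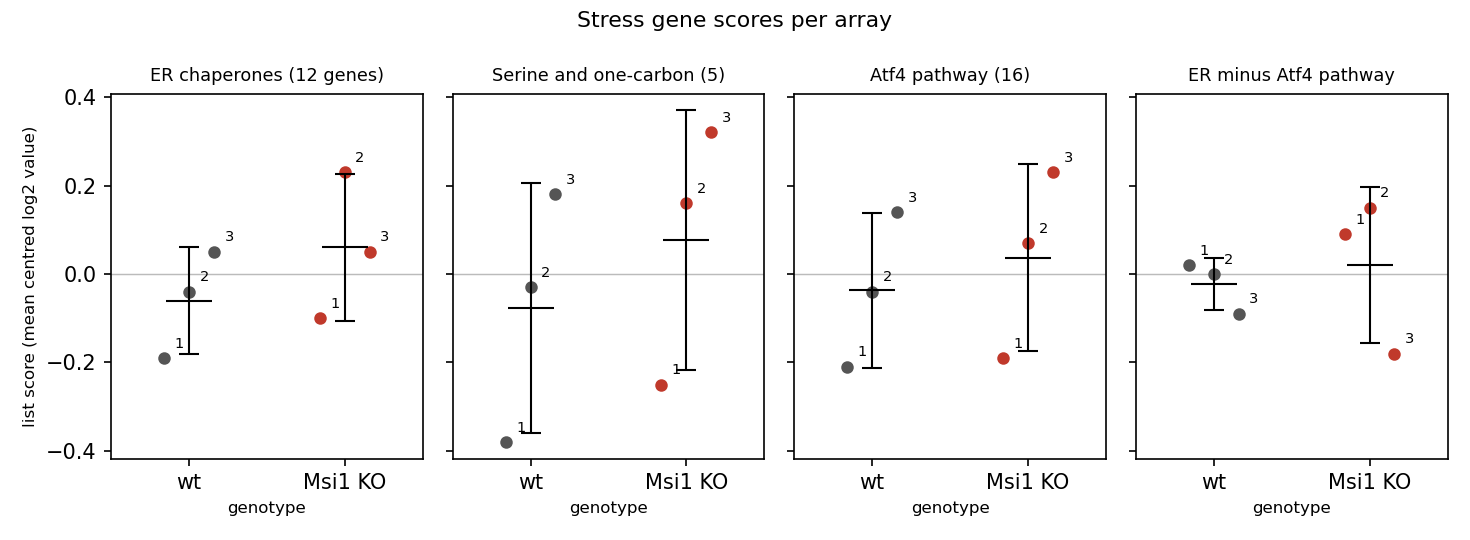
List scores per array (mean centred log2 value of the list's genes) for wild-type and Msi1-null samples, with points numbered by replicate and bars for the mean ± SD of 3 arrays. The last panel is the ER score minus the Atf4 pathway score, which spans -0.18 to 0.15 in Msi1-null and -0.09 to 0.02 in wild-type arrays.

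Further genes of the same pathways were taken from 5 lists by function. In 3 lists most genes had higher Msi1-null means, and in the sensors and the further Atf4 pathway genes fewer had. Sensors and regulators of the response had higher Msi1-null means for 7 of 19 genes, with a median of -0.02, and 0 passed adjusted or unadjusted thresholds. The smallest p in this list was that of Atf6b, a relative of Atf6, which read 394, 418 and 400.2 against 471, 453 and 419.6 (0.15 ± 0.09, SE). The sensor genes Ern1 (Ire1), Eif2ak3 (Perk), Atf6 and Eif2ak4 (Gcn2) differed by -0.03 ± 0.15, -0.20 ± 0.14, -0.04 ± 0.10 and -0.02 ± 0.07 (SE), and were singled out after their values were seen.

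Further folding and quality control genes had higher means for 15 of 22, with a median of 0.10 and 0 with an unadjusted p under 0.05. Erlec1, an ER lectin, had the smallest p and a lower Msi1-null level (-0.18 ± 0.10, SE). Translocation and secretory entry genes had higher means for 11 of 15, with a median of 0.04. Srprb, a subunit of the signal recognition particle receptor, differed by 0.24 ± 0.14 (SE). Cytosolic aminoacyl-tRNA synthetases, a group regulated by Atf4, had higher means for 12 of 17, with a median of 0.07 and a range of -0.18 to 0.18. The synthetase gene Iars had the smallest p of that list (0.10 ± 0.10, SE).

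Further Atf4 pathway genes had higher means for 8 of 17 and a median of -0.03. Cbs, the cystathionine synthase upstream of Cth, was the single gene of the 5 lists with an unadjusted p under 0.05 in limma, and its adjusted p was 0.9997. It read 275, 328 and 318 in wild-type and 245, 194 and 276 in the Msi1-null arrays, a difference of -0.37 ± 0.14 (SE). Wild-type replicate 1 and Msi1-null replicate 3 nearly met, so the groups overlapped.

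Cell type markers moved between the arrays as well, and in bulk samples fewer cells of a type and less RNA per cell cannot be told apart. Epithelial markers were present: all 9 measured lay above background on all 6 arrays, with Krt19 between 6174 and 9506. Their summed intensity was 53529 to 61169 in wild-type and 50521 to 69715 in the Msi1-null arrays. The list covers duct as well as tumour epithelium, so it does not tell tumour cells from normal duct. Markers of other cells were present too, with 10 of 10 fibroblast, 9 of 10 macrophage and 12 of 13 acinar markers above background on all arrays. Summed fibroblast intensity was 53130 to 58123 in wild-type and 44459 to 68364 in the Msi1-null arrays. The islet marker Pcsk1, the plasma cell marker Tnfrsf17 and the adipocyte marker Lep lay below background on all 6 arrays.

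Markers of acinar cells, the enzyme-secreting cells of the exocrine pancreas, had lower Msi1-null means for 13 of 13. Their summed intensity was 46753 to 77731 in wild-type and 14841 to 45755 in the Msi1-null arrays. Acinar scores were 0.46, 1.29 and 0.55 in wild-type and -1.73, -0.94 and 0.36 in Msi1-null replicates 1 to 3. Zg16, a zymogen granule lectin, and Cela3b, an elastase, differed by -2.07 ± 0.85 and -1.98 ± 0.59 (SE), and Zg16 was below background on Msi1-null replicate 1. The lowest acinar score was that of Msi1-null replicate 1, which also had the lowest Hspa5. Wild-type replicate 1 had the lowest ER chaperone score beside an acinar score of 0.46, and Msi1-null replicate 2 the highest beside one of -0.94. The part of acinar RNA in the values of the 34 genes was not tested.

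B and plasma cell markers had higher means for 6 of 8, with summed intensity of 15395 to 21255 in wild-type and 14525 to 23757 in the Msi1-null arrays. Their scores were -0.42, 0.24 and -0.11 in wild-type and -0.39, 0.71 and -0.03 in Msi1-null arrays. They were lowest in replicate 1 of each genotype and highest in Msi1-null replicate 2, as the ER chaperone scores were. T cell scores too were lowest in wild-type replicate 1 (-0.34) and highest in Msi1-null replicate 2 (0.44). Macrophage and fibroblast scores went the other way, at 0.45 and 0.37 in Msi1-null replicate 1 and -0.37 and -0.36 in Msi1-null replicate 2. Mzb1, an ER chaperone gene of plasma cells, read 414, 777 and 604 against 584, 1288 and 505. It and Jchain, singled out after their values were seen, were highest in Msi1-null replicate 2, at 1288 and 9205. Other markers of the list did not share this. Ighm was highest in wild-type replicate 2 (6786, against 6255 in Msi1-null replicate 2), and Sdc1 was lowest in Msi1-null replicate 2 (5267). Jchain was lowest in replicate 3 of each genotype (5510 and 3604), and Mzb1 was lowest among Msi1-null arrays in replicate 3. Of the 8 markers 5 lay above background on all arrays. By the rule for markers, Ms4a1 and Cd79b differed most, by 0.68 ± 0.68 and 0.60 ± 0.49 (SE), and Ms4a1 was above background on 4 arrays only. The part of these cells was not tested.

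Islet markers had scores of 0.36, -0.29 and -0.01 in wild-type and -0.64, 0.71 and -0.13 in Msi1-null arrays, also highest in Msi1-null replicate 2. Their summed intensity was 6787 to 8750 in wild-type and 5428 to 13913 in the Msi1-null arrays, with higher means for 2 of 7, and Ins2 and Chga differed most (0.53 ± 0.37 and -0.39 ± 0.52, SE). Proliferation markers had higher means for 14 of 14, with scores of -0.71, -0.09 and -0.02 in wild-type and 0.01, 0.36 and 0.45 in Msi1-null arrays. Their summed intensity was 5901 to 8969 in wild-type and 8995 to 12022 in the Msi1-null arrays, and Ccna2 and Cdk1 differed by 0.79 ± 0.26 and 0.76 ± 0.26 (SE). Wild-type replicate 1 was lowest in these, as it was in Psat1 and Mthfd2. The 3' to 5' ratio of a control transcript is a sign of RNA quality, and a lower ratio means more intact RNA. For Gapdh it was 1.55, 1.86 and 1.67 in wild-type and 1.38, 1.6 and 1.61 in Msi1-null arrays. For beta-actin it was 1.62, 1.71 and 1.64 in wild-type and 1.44, 1.58 and 1.66 in Msi1-null arrays. Both ratios were lowest, the side of more intact RNA, in replicate 1 of each genotype. The part of proliferation and of RNA quality in the stress gene values was not tested.

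**Figure D4:**
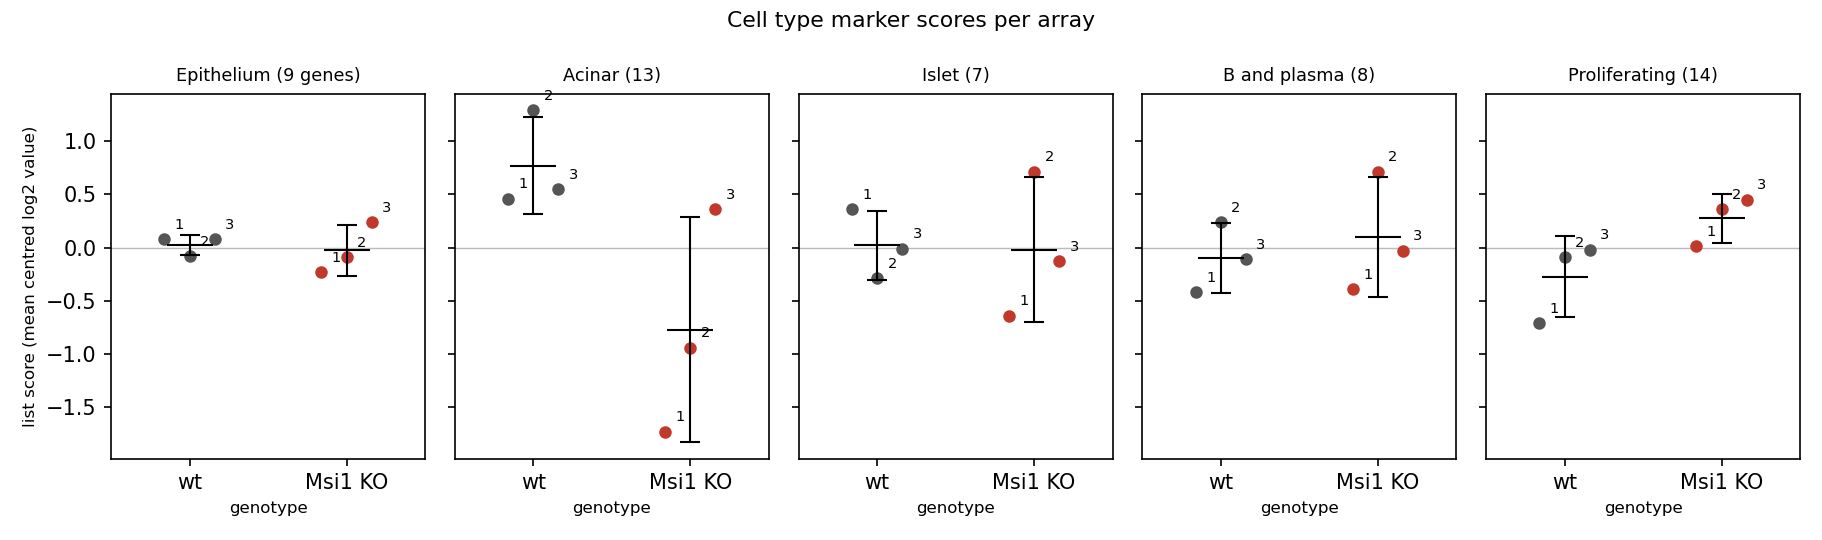
Scores per array of 5 cell type marker lists, as the mean centred log2 value of each list's genes, with points numbered by replicate and bars for the mean ± SD of 3 arrays. B and plasma cell scores are lowest in both arrays of replicate 1 (-0.42 and -0.39) and highest in Msi1-null replicate 2 (0.71).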

How the data were processed

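The authors deposited 1 table of intensity values, a row per probe set, for 6 arrays. GCRMA, which corrects background by probe sequence and normalizes across arrays, is named per the submitters' processing notes, with no version or settings. The values are linear, and any later rescaling is not stated in the sources used. Compression of low values would shrink differences of dim genes.

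Of 45101 probe sets 64 controls were left out and 45037 tested. Names came from the platform annotation, updated by Entrez identifier with RefSeq (GRCm38.p6). Values were analysed as log2(intensity + 1), fitted with genotype alone in limma 3.58.1 (R 4.3.3; lmFit, eBayes with trend), with no filter and with Benjamini-Hochberg adjustment over all probe sets at 0.05. Intervals are 95% moderated intervals. The fit was tested on simulated data. A further tumour allele that all samples share is not reported here.

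The 34 genes, the lists and the tests were chosen with earlier results of these data known. By the rule for named genes, all 34 members were named. From each pathway list, up to 3 genes by unadjusted p under 0.05 were named, or else the gene of smallest p, and from each marker list the 2 of largest difference. Marker lists for neutrophils, T cells, fibroblasts, macrophages, endothelial cells and adipocytes are given with the other observations.

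Alternatives were a pseudocount of 16, filters at a mean log2 value of 7 and 8, quantile, median and cyclic loess normalization, eBayes without trend, array weights, a block for the replicate number, leaving out each array, and probe sets averaged per gene.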

Additional observations from a re-analysis of the deposited data

How the results depend on the processing

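With 3 arrays per genotype and standard errors of 0.07 to 0.38, differences of the size seen here could not be separated from 0. No member was called in any of the 16 alternatives, with adjusted p from 0.817 to 1 (limma, Benjamini-Hochberg), and no probe set was called in any but the fit without Msi1-null replicate 1, which called 1. Leaving out 1 array gave 0 to 1 called probe sets, 0 to 2 members and 886 to 2723 probe sets at an unadjusted p under 0.05, 0.01 to 0.17 for the ER chaperone median, -0.03 to 0.16 for the Atf4 pathway median, -0.02 to 0.14 for their contrast, and 5 to 13 Atf4 pathway genes with higher means (5 without Msi1-null replicate 3). Probe sets at an unadjusted p under 0.05 numbered 1355 in the main analysis, 2153 with array weights, 546 with the filter at 8, 605 with probe sets averaged per gene (genes) and 2120 with the replicate block. Members at that limit numbered 2 with eBayes without trend (Pdia4 and Sec61b) and 2 with the replicate block (Pdia6 and Psat1).

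Of the 34 members 16 kept their direction in every alternative that tested them (the filter at 8 left out Cth and Stc2). Array weights turned Hspa5 to 0.07, Dnajc3 to 0.01, Atf4 to 0.01 and Slc7a5 to -0.02, and probe sets averaged per gene turned Hspa5 to 0.08. Leaving out 1 array turned 18: Asns -0.07 to 0.11, Atf4 -0.18 to 0.08, Calr -0.07 to 0.15, Chac1 -0.07 to 0.33, Cth -0.04 to 0.09, Ddit3 -0.05 to 0.28, Dnajc3 -0.08 to 0.06, Edem1 -0.02 to 0.21, Herpud1 -0.15 to 0.23, Hspa5 -0.13 to 0.19, Hyou1 -0.07 to 0.14, Manf -0.11 to 0.16, Phgdh -0.07 to 0.61, Slc3a2 -0.01 to 0.08, Slc7a5 -0.05 to 0.12, Stc2 -0.26 to 0.23, Syvn1 -0.03 to 0.22, Vldlr -0.42 to 0.10. Under the contrast of the 19 ER and 15 Atf4 genes in the order in which they were listed, the difference was 0.03. The causes were not tested. The labels do not say that equal numbers pair samples, so the numbers were not taken as pairs. Deviations of arrays with the same number correlated by 0.17, -0.09 and 0.28, and those with different numbers by -0.26 to 0.06. A pairing therefore stays possible. The block changed no adjusted call, but with it the probe sets at an unadjusted p under 0.05 rose from 1355 to 2120 (limma).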

Other observations

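T cell markers had higher Msi1-null means for 6 of 6, with scores of -0.34, -0.05 and -0.07 in wild-type and 0.04, 0.44 and -0.02 in Msi1-null arrays. Cd3d and Cd3g, subunits of the T cell receptor complex, differed by 0.58 ± 0.27 and 0.50 ± 0.21 (SE), and each was below background on wild-type replicate 1. Neutrophil markers had higher means for 4 of 6, with Csf3r, the receptor of a granulocyte growth factor, at 0.54 ± 0.23 and Ngp, a granule protein, at -0.43 ± 0.21 (SE). Macrophage markers had higher means for 7 of 10, with scores between -0.10 and 0.11 in wild-type and between -0.37 and 0.45 in Msi1-null arrays. Mrc1 and Adgre1, both macrophage surface proteins, differed by -0.29 ± 0.39 and 0.20 ± 0.17 (SE).

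Fibroblast markers had higher means for 5 of 10, with the matrix protein gene Postn at -0.44 ± 0.25 and the surface protease gene Fap at 0.28 ± 0.23 (SE). Of the endothelial markers 6 of 8 had higher means, with Emcn at 0.42 ± 0.25 and the VEGF receptor gene Kdr at 0.32 ± 0.23 (SE). Of the adipocyte markers 6 of 6 had lower means, with Fabp4 at -0.39 ± 0.38 (SE). Adipoq lay above background on 2 wild-type arrays and on no Msi1-null array, at 94.6, 518 and 165 against 106, 123 and 144, so no exact difference is given. Wild-type replicate 2 had the highest score, 0.77. Among epithelial markers the tight junction gene Cldn4 and the adhesion gene Epcam differed most, by -0.63 ± 0.38 and -0.20 ± 0.10 (SE). None of these genes had an adjusted p under 0.05 (limma).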
